A study of Mus musculus with 5 samples.

Results

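Olfactory receptor genes sit in long genomic clusters, and 6 such clusters on 4 mouse chromosomes were examined for the histone marks H3K9me3 and H3K36me3 in embryonic stem cells. The clusters were taken as fixed spans of build mm9. They are the short chromosome 2 cluster (36 to 37.2 Mb), the long chromosome 2 cluster (85.0 to 90.2 Mb), the chromosome 7 cluster (109.5 to 116.1 Mb), the first chromosome 9 cluster (18.6 to 20.3 Mb), the second chromosome 9 cluster (37.5 to 40.3 Mb) and the chromosome 19 cluster (12 to 14 Mb). Every island, meaning a broad enriched region called by SICER, was counted as a member if its midpoint fell in one of these spans, which cover 19.5 Mb together. Members numbered 771 of 73415 islands in the 4 deposited lists. The rule uses position alone and no measured value, but the spans were chosen with earlier results of these data known.

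Chromatin immunoprecipitation with sequencing (ChIP-seq) had been run on TBV2 cells, a wild-type mouse embryonic stem cell line of strain 129/SvP grown with leukemia inhibitory factor and without added non-essential amino acids. Both groups were seeded sparsely on gelatin without feeder cells. Control cells (ESCs) were kept for 5 days in complete medium, and the treated cells, called L-proline-induced cells (PiCs), received 500 µM L-proline over the same time. The comparison asked how both marks differ between untreated and L-proline-treated cells. Each mark and condition had 1 library, so no difference between ESCs and PiCs has a replicate check, no test was made, and intervals are exact 95% binomial intervals that cover counting error only. An input library of untreated cells was not analysed here, so islands cannot be told apart from sites that gather reads without the antibody. The lists name no genes, so the labelled cell type was not checked against its markers.

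Olfactory receptors are G protein-coupled receptors of the nasal epithelium, and a mature olfactory neuron expresses a single allele of the large gene family while the other receptor genes stay silent. In olfactory neurons of the mouse the silent receptor genes are known to carry H3K9me3, a mark of repressed chromatin that SETDB1 also places on endogenous retroviruses in embryonic stem cells. H3K36me3 is laid down by SETD2 behind elongating RNA polymerase II and so marks the bodies of transcribed genes. The mouse has class I receptors, akin to those of fish and gathered in a single locus on chromosome 7, and class II receptors, spread over many clusters.

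The RefSeq gene table at hand is of build GRCm38.p6, so no gene was placed on an island and the content of the spans could not be checked by position. By name, 719 of the 1110 protein-coding Olfr genes of that table (64.8%) lie on the 4 chromosomes. There were 287 on chromosome 2, 239 on chromosome 7, 130 on chromosome 9 and 63 on chromosome 19. Consecutive Olfr genes form long runs there, such as 123 genes from Olfr153 to Olfr1274 on chromosome 2, followed by the phosphatase gene Ptprj. A separate run of 28 genes, Olfr338 to Olfr368, lies between Ptgs1, a prostaglandin synthase, and Pdcl. On chromosome 7 the runs are broken by other gene families, among them the beta-globin genes (Hbb-bt and Hbb-y), Trim genes and Usp17-like genes. On chromosome 9 the zinc finger gene Zfp317 divides a run of 19 from a run of 16 Olfr genes. Chromosome 2 also holds runs of 93 and 37 Olfr genes, and which runs lie in a span was not tested.

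The annotated starts of Olfr genes lie in sequence poor in G and C, shown here with start windows from RefSeq (GRCm38.p6). The windows are those of Olfr genes anywhere on the 4 chromosomes, not of the spans alone. Of the 719 genes, 620 had such a window of 250 bases before and 50 bases after the annotated start. Their median GC content was 34.3% (quartiles 31 and 38), against 57.3% (50.3 and 64.7) for the other protein-coding genes of the 4 chromosomes. The median number of CpG dinucleotides was 1 against 14, and 34.8% of the Olfr windows had none, against 3.18% of the others. In 74.0% of the Olfr windows the annotated start was the ATG itself, which means that for these genes the table holds no untranslated first exon. Only 5.16% of the other windows started at ATG, so the GC and CpG values compare partly unlike positions. Whether base composition bears on the island numbers below was not tested. The windows printed are 2 Olfr genes from the longest Olfr run of chromosomes 2 and 7 and Ptprj as the neighbour of the chromosome 2 run. Of the windows in each run that do not start at ATG, the one with GC content closest to the Olfr median of its chromosome was taken (32.7% on chromosome 2, where the median was 32.7%, and 34.3% on chromosome 7, where it was 37%). Capitals mark CpG dinucleotides, of which Olfr1140 has 1, Olfr478 has 3 and Ptprj has 42. Positions are of GRCm38.p6 and do not correspond to the island positions given later, which are mm9.
Olfr1140, chr2:87745911-87746210, plus strand: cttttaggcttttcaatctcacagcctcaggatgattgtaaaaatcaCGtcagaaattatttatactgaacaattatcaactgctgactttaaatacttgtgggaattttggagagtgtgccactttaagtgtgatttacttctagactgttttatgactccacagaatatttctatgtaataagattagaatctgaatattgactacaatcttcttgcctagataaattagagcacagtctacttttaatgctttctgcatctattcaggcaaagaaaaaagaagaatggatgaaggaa
Olfr478, chr7:108033918-108034217, minus strand: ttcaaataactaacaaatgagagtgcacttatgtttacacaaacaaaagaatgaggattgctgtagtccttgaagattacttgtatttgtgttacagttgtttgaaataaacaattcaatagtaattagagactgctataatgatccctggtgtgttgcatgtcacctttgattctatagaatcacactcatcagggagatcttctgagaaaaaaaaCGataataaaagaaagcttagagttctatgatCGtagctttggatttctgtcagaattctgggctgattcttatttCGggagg
Ptprj, chr2:90580546-90580845, minus strand: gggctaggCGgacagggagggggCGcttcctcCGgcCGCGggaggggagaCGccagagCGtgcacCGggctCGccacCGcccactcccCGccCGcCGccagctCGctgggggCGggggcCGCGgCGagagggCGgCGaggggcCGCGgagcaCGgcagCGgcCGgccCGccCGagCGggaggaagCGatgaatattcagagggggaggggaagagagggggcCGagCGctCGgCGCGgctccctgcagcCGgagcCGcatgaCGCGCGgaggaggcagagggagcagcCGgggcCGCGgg
The Olfr windows are long AT-rich stretches poor in CpG, whereas the Ptprj window is dense in CpG (GC content 79.3%, against 32.7% and 34.3%).

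The 4 lists differed in size. For H3K9me3 there were 18464 ESC and 25867 PiC islands, and for H3K36me3 12280 and 16804. Members were 268, 419, 39 and 45 of them in that order, or 1.45%, 1.62%, 0.318% and 0.268% of each list. Each island comes with a whole number, taken here as its tags. By this measure the members held 22310 and 67059 tags of H3K9me3 in ESCs and PiCs, and 61991 and 29339 tags of H3K36me3. Tags cover called islands only, so library depth is unknown, and counts are not compared between lists. The whole lists held 1511058 ESC and 3514489 PiC tags for H3K9me3, and 26055650 and 15787192 for H3K36me3. Where tags of an ESC and a PiC island are printed together below, each describes its own list only.

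H3K9me3 covered more of the olfactory receptor clusters than of the sequence around them, and more in PiCs than in ESCs in all 6. Pooled over the clusters, ESC islands covered 4.34% of the bases and PiC islands 9.99%. In the other sequence of the same chromosomes (487.7 Mb, from the first to the last base under any island) the shares were 1.88% and 3.15%. Coverage of the clusters was thus 2.31 times that of the other sequence in ESCs and 3.17 times in PiCs. H3K36me3 had the opposite bias, with 2.99% of the clusters under ESC islands and 2.40% under PiC islands, against 11.0% and 10.6% elsewhere on these chromosomes.

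**Figure D1:**
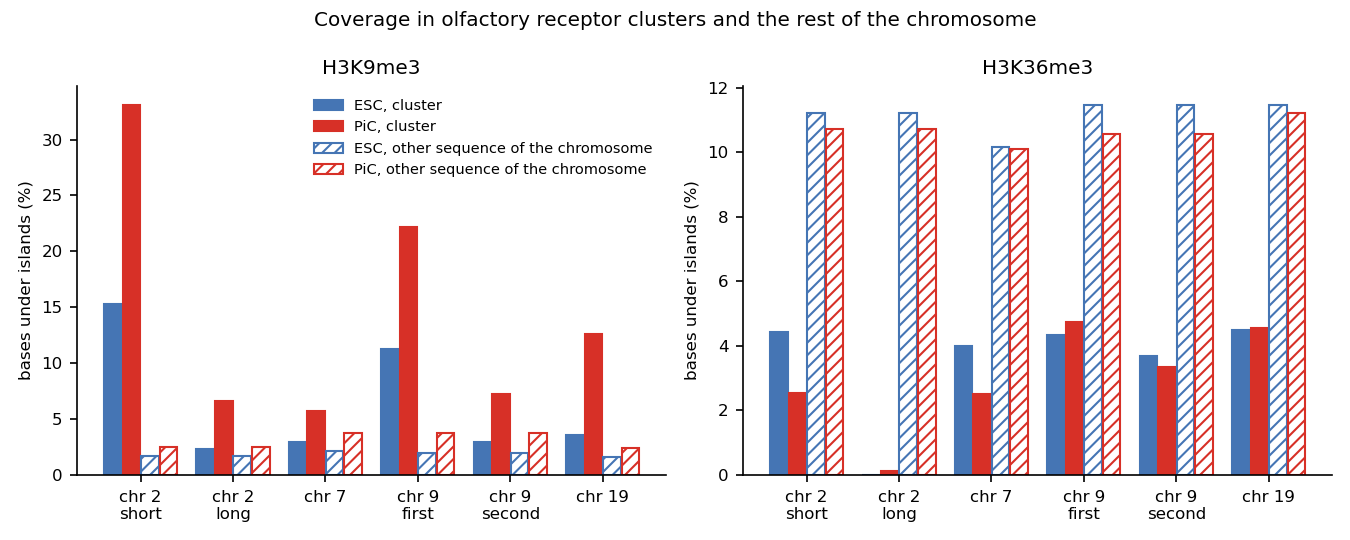
Percent of bases under H3K9me3 islands (left) and H3K36me3 islands (right) in each cluster (filled bars) and in the other sequence of its chromosome (hatched bars), for ESCs in blue and PiCs in red, 1 library each. H3K9me3 bars of the clusters stand above the hatched bars of their chromosome in both conditions, from 2.32% to 33.1%, and H3K36me3 bars stand below, at 0% to 4.75%.

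The short chromosome 2 cluster had the highest H3K9me3 coverage of the 6 in both conditions. Within 1.2 Mb it carried 45 ESC and 65 PiC islands, with 15.3% and 33.1% of its bases covered. The other sequence of chromosome 2 had 1.70% and 2.46%. Islands also lay close together, with a median gap of 11.9 kb in ESCs and 5.9 kb in PiCs, against 78.5 kb and 59.0 kb elsewhere on the chromosome. The widest ESC island here spanned 12.2 kb (chromosome 2, 36479601 to 36491800, 171 tags) and met a 12.8 kb PiC island with 383 tags. The widest PiC island spanned 24.2 kb (36455201 to 36479400, 775 tags), the 16th widest of its list, and only 21.5% of it lay under an ESC island. Of the PiC islands without an ESC counterpart the widest measured 15 kb (36404601 to 36419600). These regions fall in the bin of 100 kb from 36400001 to 36500000, where coverage was 23.8% in ESCs and 62% in PiCs, the highest PiC value of any bin in the clusters.

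The first chromosome 9 cluster was the other densely marked one. Its 54 ESC and 74 PiC islands of H3K9me3 covered 11.3% and 22.2% of 1.7 Mb, against 2.01% and 3.73% of the other sequence of chromosome 9. The widest ESC island (20070001 to 20080200, 10.2 kb, 380 tags) lay inside a 13.8 kb PiC island with 730 tags, the most of any PiC island in this cluster. The widest PiC island, 21.2 kb at 19951401 to 19972600, had no ESC island on it. Coverage in the bins of 100 kb rose and fell along the span, from 0% to 29.8% in ESCs and from 3.6% to 53.8% in PiCs. The lowest values lay in the bins from 19300001 to 19500000, which hold the middle pair of H3K36me3 islands described further on.

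The chromosome 19 cluster had the largest ratio between conditions. There were 25 H3K9me3 islands without and 51 with L-proline, and coverage was 3.59% and 12.7%, so that covered length differed by a factor of 3.52. On the other sequence of chromosome 19 the shares were 1.63% and 2.41%, a ratio of 1.48. The added coverage lay mostly in the distal tile of 1 Mb (13000001 to 14000000), of which 6.08% was covered in ESCs and 19.2% in PiCs. The tile before it had 1.1% and 6.06%. The widest PiC island (13670401 to 13684400, 14 kb, 706 tags) took in 2 ESC islands of 7 and 5.8 kb.

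The long chromosome 2 cluster, the second chromosome 9 cluster and the chromosome 7 cluster were less densely marked. In the long chromosome 2 cluster, 46 ESC islands covered 2.32% of 5.2 Mb and 87 PiC islands covered 6.60%. The second chromosome 9 cluster had 33 and 54 islands over 2.8 Mb, with 2.97% and 7.21% covered. In the chromosome 7 cluster 65 and 88 islands covered 2.97% and 5.69% of 6.6 Mb. All 3 exceeded the other sequence of their chromosome in both conditions, and the chromosome 7 cluster did so least in PiCs, at 1.5 times the 3.80% found elsewhere on chromosome 7. Their widest PiC islands were 12.2 kb (chromosome 2, 86458401 to 86470600), 13.8 kb (chromosome 9, 38432001 to 38445800) and 17.8 kb (chromosome 7, 110210601 to 110228400). Each of these met ESC islands, 1 on chromosome 2 and 3 on each of the others.

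In the chromosome 7 cluster H3K9me3 was unevenly spread. Its tiles of 1 Mb ranged from 0.9% in ESCs and 2.6% in PiCs (114000001 to 115000000) to 8.44% and 14.5% (115000001 to 116000000). The tile with the least H3K9me3 was also the one with the most H3K36me3 in ESCs, 12.7%. In PiCs it had 3.64%, below the 6.56% of the tile from 112000001 to 113000000. In the long chromosome 2 cluster the 5 whole tiles were more alike, between 1.3% and 2.98% in ESCs and between 5.14% and 9.1% in PiCs.

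**Figure D2:**
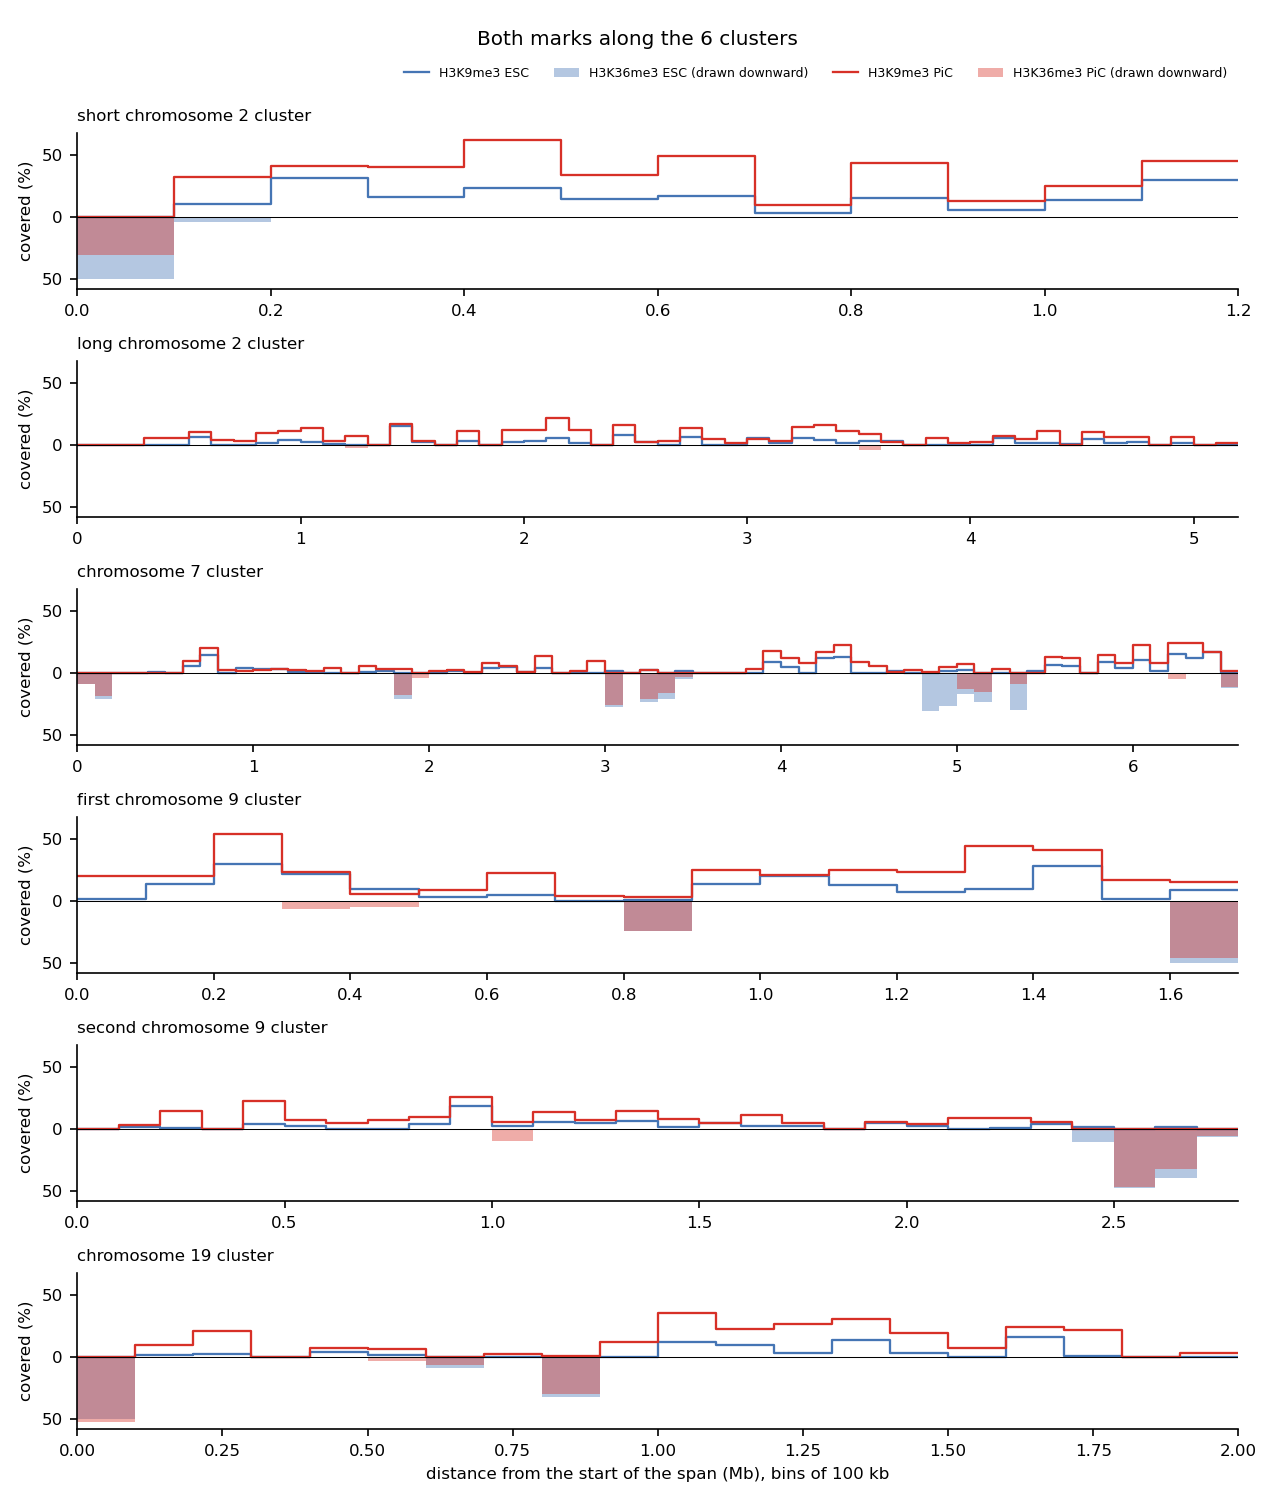
Share of each bin of 100 kb under H3K9me3 islands (lines, upward) and H3K36me3 islands (shading, downward) along the 6 clusters, in ESCs (blue) and PiCs (red), against the distance from the start of the span. The PiC line runs above the ESC line in 143 of 195 bins, and H3K36me3 sits in 24 bins in ESCs and 28 in PiCs, some of them at the edge of a span.

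Compared bin by bin, PiC coverage by H3K9me3 exceeded ESC coverage in 143 of the 195 bins of the clusters (73.3%) and was lower in 15 (7.69%). Among bins of the other sequence of these chromosomes 35.9% were higher and 12.7% lower in PiCs. Bins with islands in neither condition made up 17.9% of the clusters and 50.03% of the other sequence. Among the bins with H3K9me3 in at least one condition, PiC coverage was the higher in 89.4% of 160 cluster bins and in 71.9% of 2439 others. Bins with at least 20% coverage went from 7 in ESCs to 35 in PiCs in the clusters, of which 9 and 11 of the 35 were in the short chromosome 2 and first chromosome 9 clusters and 7 in the chromosome 19 cluster. As shares of all bins these were 3.59% and 17.9% in the clusters, against 0.717% and 3.07% in the other sequence, so such bins were more frequent in PiCs there too.

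The ratio between conditions was larger in covered length than in island number. In covered length, PiCs had 2.30 times the ESC value over the 6 clusters and 1.67 times over the other sequence of the 4 chromosomes. By cluster it was 2.17 (short chromosome 2), 2.85 (long chromosome 2), 1.92 (chromosome 7), 1.97 (first chromosome 9), 2.43 (second chromosome 9) and 3.52 (chromosome 19). All 6 lay above the ratio of the other sequence of their chromosome, which was 1.45, 1.80, 1.86 and 1.48 for chromosomes 2, 7, 9 and 19 in turn, although the chromosome 7 and first chromosome 9 clusters were close to it. The number of islands was 1.56 times as high in PiCs (interval 1.34 to 1.83), against 1.35 (1.29 to 1.42) in the other sequence. These intervals overlap, and in the chromosome 7 and first chromosome 9 clusters the number ratios of 1.35 (0.971 to 1.90) and 1.37 (0.952 to 1.98) were below the 1.40 and 1.42 of their chromosomes. The PiC H3K9me3 list is the longer one, and with the lists cut to equal size the ratio was 1.25 (1.06 to 1.48) in the clusters and 0.944 (0.897 to 0.994) elsewhere.

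Much of the same chromosomes that is poor in H3K36me3 had a similar ratio, though at lower coverage. This comparison was added after the data had been seen. Among the other tiles of 1 Mb, 199 of 486 had under 5% H3K36me3 coverage in both conditions. H3K9me3 covered on average 1.62% of them in ESCs and 3.78% in PiCs, which is 2.34 times as much. Some of the 199 tiles had no island in any list, such as those of chromosome 7 from 40000001 to 46000000, which lowers both means. The 17 tiles that lie wholly in a cluster had means of 4.03% and 9.65%, a ratio of 2.39, and for all 486 other tiles the ratio was 1.67. No such filter was applied to the cluster tiles, whose H3K36me3 coverage reached 12.7% in ESCs and 9.1% in PiCs, so the sets are not matched. With this limit, the ratio in the cluster tiles was near that of the H3K36me3-poor tiles, while the level of coverage was higher.

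Among tiles, the clusters did not stand outside the range of other sequence, with 1 exception. The first tile of the short chromosome 2 cluster (36000001 to 37000000) had 13.9% of its bases under ESC and 32.7% under PiC H3K9me3, and none of the 486 other tiles was higher in either condition. The next highest PiC values were 29.5% to 25.4% in 6 other tiles, 4 of them on chromosome 7 and 2 on chromosome 9. The distal chromosome 19 tile and the tile of the first chromosome 9 cluster were each exceeded by 9 other tiles in PiCs. The lowest cluster tile in PiCs, on chromosome 7 from 114000001 to 115000000, was exceeded by 182. The median cluster tile had 2.8% in ESCs and 6.9% in PiCs, against 1.22% and 1.88% in the others.

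**Figure D3:**
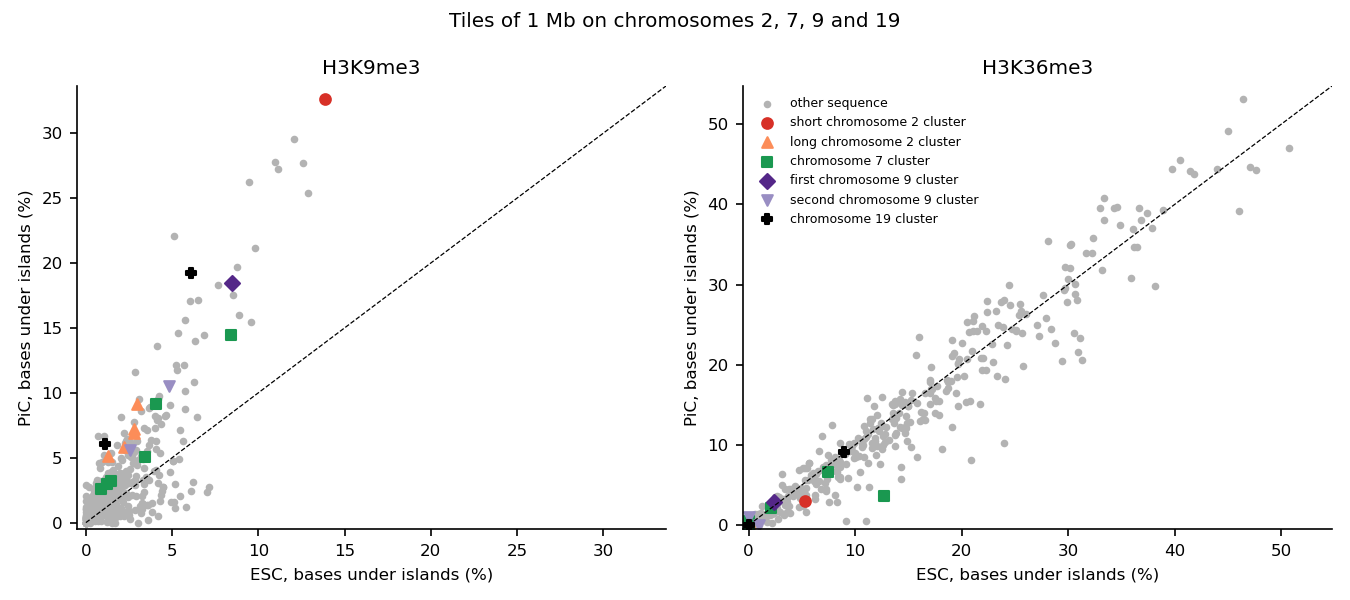
Each point is a tile of 1 Mb on chromosome 2, 7, 9 or 19, placed by the percent of its bases under islands in ESCs (x axis) and PiCs (y axis), for H3K9me3 (left) and H3K36me3 (right); the dashed line marks equal coverage. All 17 cluster tiles lie above the line for H3K9me3, led by the short chromosome 2 cluster at 13.9% and 32.7%, and between 0% and 12.7% for H3K36me3.

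In PiCs the member islands were wider than islands elsewhere, but not denser in tags. The median ESC member spanned 2.6 kb and the median PiC member 3.8 kb, against 2.6 kb and 3.0 kb in the other sequence. Islands of at least 10 kb numbered 6 of 268 in ESCs (2.24%, where the whole list had 1.05%) and 32 of 419 in PiCs (7.64%, against 2.9%). Of those 32, 13 lay in the short chromosome 2 cluster, 7 in the first chromosome 9 cluster and 5 in the chromosome 19 cluster. Such islands made up 2.30% of the PiC members in the long chromosome 2 cluster and 1.85% in the second chromosome 9 cluster, below the 2.9% of the list. Within each list, the tag density of members had its median at 25.95 (ESCs) and 32.1 (PiCs) per kb, and that of islands in the other sequence at 25 and 33.3. In ESCs the median width was thus the same inside and outside the clusters, and in PiCs it was larger inside, while tags per kb were close in both conditions.

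Most ESC H3K9me3 islands of the clusters were met by a PiC island, at least in part. Of the 268 ESC members, 247 (92.2%, interval 88.3 to 95.1) overlapped a PiC island by 1 bp or more and 21 (7.84%) did not, whereas 20.7% of the whole ESC list had no overlap. In the other sequence of the 4 chromosomes 77.4% (75.9 to 78.9) were shared, where PiC islands cover less of the sequence (3.15%, against 9.99% of the clusters). The 21 unmatched members were narrow, with a median of 1.2 kb and a maximum of 4.6 kb, and 11 of them lay in the chromosome 7 cluster. Unmatched ESC islands elsewhere on these chromosomes had a median of 3 kb and 16.2 tags per kb, against 25 tags per kb in the 21 members. Without the chromosome 7 cluster the shared portion was 95.1%. When the overlap had to span 50% of both islands it was 57.8% over the 6 clusters.

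Seen from PiCs, the members were matched as often as other islands. Of the 419 PiC members 188 (44.9%) had no ESC island, close to the 45.5% of the whole list. Their median width was 3.4 kb, against 2.6 kb for unmatched PiC islands in the other sequence, and they covered 717 kb of the clusters. The unmatched portion ranged from 22 of 65 islands in the short chromosome 2 cluster and 26 of 74 in the first chromosome 9 cluster to 44 of 87 in the long chromosome 2 cluster and 31 of 51 in the chromosome 19 cluster. The 2 clusters richest in H3K9me3 in ESCs had the smallest unmatched portions. They held 37.5 and 31.8 ESC islands per Mb, against 6.27 in the other sequence. An overlap of 1 bp is more likely by position alone where islands are dense, and this was not corrected for.

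Where 1 ESC island met 1 PiC island, the PiC island was usually the wider. There were 209 such pairs in the clusters, with median widths of 2.6 kb and 4.2 kb. The median of the width ratio was 1.43 (quartiles 1.05 and 2.17), and 164 pairs (78.5%) were wider in PiCs while 24 were wider in ESCs. In the other sequence 2083 pairs had a median ratio of 1.31 (1 and 2) and 69.8% were wider in PiCs. By cluster the median ratio lay between 1.38 in the first chromosome 9 cluster and 1.72 in the chromosome 19 cluster. Among PiC members, 17 of 419 took in parts of at least 2 ESC islands (4.06%, against 2.87% of the list). The reverse, an ESC island met by 2 or more PiC islands, was seen in 3 of 268 (1.12%, against 1.53%). The largest PiC island that met at least 2 ESC islands, 17.8 kb in the chromosome 7 cluster, met 3 that together measured 13 kb.

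**Figure D4:**
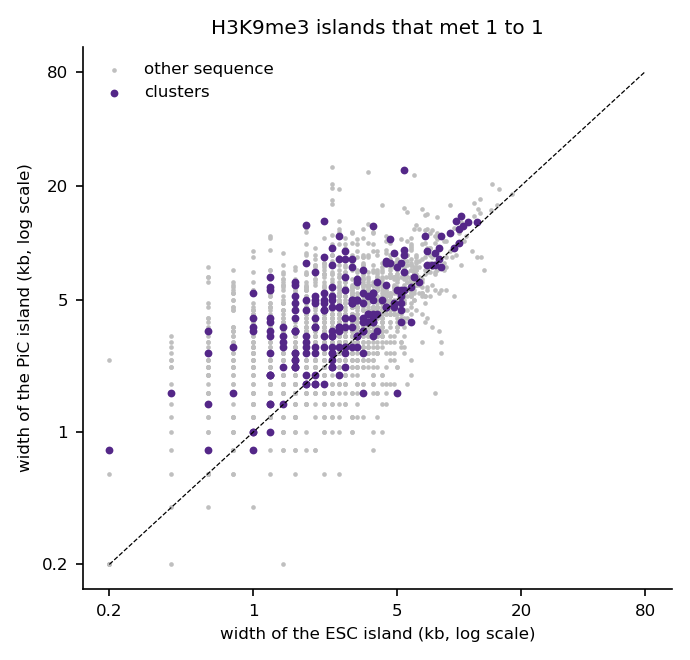
Width of the ESC island (x axis) and of the PiC island (y axis), both in kb on log scales, for H3K9me3 islands that met 1 to 1, in the clusters (purple, 209 pairs) and the other sequence of chromosomes 2, 7, 9 and 19 (grey, 2083 pairs). Most purple points lie above the dashed line of equal width, as do most grey points, 78.5% and 69.8% of the pairs.

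H3K36me3 was sparse in the clusters in both conditions. The long chromosome 2 cluster had no ESC island in its 5.2 Mb and 2 PiC islands of 2.6 kb (86209201 to 86211800, 119 tags) and 3.8 kb (88581801 to 88585600, 121 tags). The other sequence of chromosome 2 was covered at 11.2% in ESCs and 10.7% in PiCs. In the second chromosome 9 cluster the first 2482.6 kb, or 88.7% of the span, had no ESC H3K36me3. Its longest stretch without PiC H3K36me3 was 1449 kb, or 51.8%, since PiC islands of 4.2 and 5.4 kb were called at 38528401 and 38546001. The stretches free of H3K36me3 in ESCs carried 46 H3K9me3 islands in the long chromosome 2 cluster and 32 in the second chromosome 9 cluster.

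The H3K36me3 that did lie in the spans was found in 24 of 195 bins in ESCs and 28 in PiCs, at the edges of spans and inside them. With spans narrowed by 100 kb at each end, coverage was still 2.23% in ESCs and 1.72% in PiCs. In the short chromosome 2 cluster all 3 ESC islands (28.6, 15.4 and 12.6 kb) ended by 36103600, and all 4 PiC islands (2.6 to 16 kb) ended by 36046400. The first 100 kb of that span had 49.6% H3K36me3 coverage in ESCs and 30.6% in PiCs and no H3K9me3 in either condition, while the remaining 11 bins all carried H3K9me3 in both. In the second chromosome 9 cluster the widest island was nearly identical in both conditions, 46.2 kb in ESCs (40000401 to 40046600, 6652 tags) and 46.4 kb in PiCs (40000401 to 40046800, 2928 tags). In the chromosome 19 cluster the widest island had the same edges in both lists (11988801 to 12021400, 32.6 kb, 5672 and 2986 tags) and crossed the start of the span. It is a member by its midpoint only.

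In the first chromosome 9 cluster ESC H3K36me3 lay in the middle and at the end of the span. PiC H3K36me3 lay there too, and also nearer the start, in islands of 6.4 kb (18948401 to 18954800) and 4.8 kb (19016001 to 19020800). Neither of these had an ESC H3K36me3 counterpart, and both touched PiC H3K9me3. The middle pair was called at 19428401 to 19437800 in both conditions (9.4 kb) and at 19443601 to 19458000 in ESCs (14.4 kb, 155 tags per kb) beside 19441001 to 19455200 in PiCs (14.2 kb, 56.5 tags per kb). The bin around it had 1.4% H3K9me3 in ESCs and 3.6% in PiCs, the lowest PiC value of the cluster. At the end of the span an island of 23.8 kb in ESCs (20272201 to 20296000) corresponded to one of 21.8 kb in PiCs (20274201 to 20296000). The last bin, from 20200001, was 49.8% and 46% covered by H3K36me3 and carried 9.4% and 15.8% H3K9me3 as well.

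The chromosome 7 cluster held 22 of the 39 ESC and 20 of the 45 PiC H3K36me3 islands, and some were called in 1 condition only. H3K36me3 covered 3.99% of the cluster in ESCs and 2.52% in PiCs, while the other sequence of chromosome 7 had 10.2% and 10.1%. Of the 22 ESC islands, 17 overlapped a PiC island, and the 5 that did not all lay between 114354401 and 114870000, with shared islands among them. Of the 20 PiC islands, 3 had no ESC island, at 111492001, 114557201 and 115740201 (4.2, 8.8 and 4.8 kb). The 5 ESC islands summed to 67.8 kb, and the widest spanned 25.2 kb (114354401 to 114379600, 1567 tags, 62.2 per kb). The first 4 of them stood in a row up to 114445400, a grouping picked out after its values had been seen. They held 39.6 to 99.8 tags per kb, where the ESC list had a median of 71.3. In the tile from 114000001 to 115000000 H3K36me3 coverage was 12.7% in ESCs and 3.64% in PiCs, beside 0.9% and 2.6% for H3K9me3. Where islands of this cluster met 1 to 1, 12 of 17 pairs were narrower in PiCs, with a median width ratio of 0.895. In the other sequence of the 4 chromosomes this held for 948 of 1856 pairs, with a median ratio of 0.992. The widest pairs of the cluster differed little, with 29.4 kb and 26.6 kb at 109591401 and 26.8 kb and 25.6 kb at 112519201. Others differed more, with 17 kb in ESCs and 4.2 kb in PiCs for the pair that starts at 114567601 in ESCs, and 14.2 kb and 4.8 kb for that at 114878601.

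H3K36me3 islands found in 1 condition were few and, in PiCs, narrow. Of the 39 ESC members 8 (20.5%) had no PiC island, against 10.3% of the list, and 5 of these 8 were those of the chromosome 7 cluster. Of the 45 PiC members 11 (24.4%) had no ESC island, against 20.3% of the list. These 11 were 2.6 to 8.8 kb wide. Their median was 4.2 kb, and unmatched PiC islands in the other sequence of the 4 chromosomes were narrow too, with a median of 5 kb. Of the ESC members 5 (12.8%, against 17.7% of the list) were met by 2 or more PiC islands, such as that of 31.8 kb on chromosome 19 (12835601 to 12867400), called as 19.6 and 9.8 kb in PiCs. Of the PiC members 2 (4.44%, against 4.56%) met 2 or more ESC islands. At this number of islands the shares carry wide intervals, 79.5% shared (63.5 to 90.7) in ESCs and 75.6% (60.5 to 87.1) in PiCs.

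Few H3K9me3 islands of the clusters touched H3K36me3. Only 1 of 268 ESC H3K9me3 islands touched an ESC H3K36me3 island (0.373%, interval 0.009 to 2.06), against 7.74% of the list, and 7 of 419 did in PiCs (1.67%, 0.674 to 3.41), against 6.07%. In the other sequence of the 4 chromosomes the shares were 8.27% (7.32 to 9.30) and 6.27% (5.55 to 7.05), where H3K36me3 covers more of the sequence. Counted from H3K36me3, 1 of 39 ESC members touched H3K9me3 (2.56%, against 10.2% of the list), but 7 of 45 PiC members did (15.6%, 6.49 to 29.5), a larger share than the 8.86% of the list, though the interval includes it. Of these 7 PiC islands, 6 had no ESC H3K36me3 counterpart. Both PiC islands of the long chromosome 2 cluster were among them.

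Coverage outside the borders of the clusters was taken over the 1 Mb on each side. H3K9me3 coverage was lower than in the cluster in 11 of 12 such flanks in ESCs and in 12 of 12 in PiCs. The exception was the flank before the long chromosome 2 cluster, with 2.7% in ESCs against 2.32% in the cluster. Flanks of the short chromosome 2 cluster had 3.86% and 0.7% in ESCs and 1.52% and 0.62% in PiCs, beside 33.1% inside the cluster in PiCs. The flank before the first chromosome 9 cluster was the most covered, with 5.92% in ESCs and 11.1% in PiCs. In flanks, PiC coverage was the higher in 8 of 12. H3K36me3 coverage was lower than in the cluster in 2 of 12 flanks in both conditions, and its median over the flanks was 16.9% in ESCs and 15.4% in PiCs.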

How the data were processed

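The 4 ChIP libraries were analysed as deposited island lists. Per the submitters' processing notes, islands were called with SICER on mm9. The sources used here do not give its version or thresholds, the aligner, the handling of duplicates or the use of the input. Per the labels' protocols, libraries were PCR-amplified and sequenced on a SOLiD instrument. Each deposited list gives chromosome, start, end and a whole number per island, read as an unscaled tag count. Edges lie on a 200 bp grid, and positions are 1-based.

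Groups came from sample titles. Coverage counts bases of islands within a span. Comparisons used Python 3.11.15, numpy 2.4.6, pandas 2.3.3 and scipy 1.17.1, with exact binomial intervals, and overlap of 1 bp called islands shared. The functions were tested on 6 simulated lists, with an error of 0 percentage points in the planted shares. These lists were random subsets of the ESC islands with unchanged edges. Partial overlap, the other overlap rules and the joining of islands were therefore not checked by them. Islands listed for naming were, per cluster and mark, the widest, the one with the most tags and the widest unmatched one per list, and the 3 widest for H3K36me3. Not all of these are named in the text, and the widest unmatched ESC H3K9me3 islands are left out. Some islands outside this rule are named as well. The spans and comparisons were chosen with earlier results of these data known. Bins and tiles named singly were chosen after their values were seen. Gene names came from RefSeq GRCm38.p6 and were not joined to islands. Alternatives were stricter, equal-sized, joined or width-filtered lists, other overlap rules, narrowed spans and clusters left out.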

Additional observations from a re-analysis of the deposited data

How the results depend on the processing

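No paired analysis was possible because every mark and condition had a single library, and no replicate could be left out. The ratio of H3K9me3 island numbers in the clusters (1.56) stayed above 1 under every alternative run and left its interval only with lists of equal size (1.25). There the other sequence of the 4 chromosomes turned to 0.944, from 1.35, because the longer list was shortened. H3K9me3 coverage of the clusters was 3.30% in ESCs and 8.11% in PiCs when only the 50% of islands richest in tags were kept, and 3.63% to 5.08% and 8.48% to 12.2% when single clusters were left out. Without the 2 denser clusters (short chromosome 2 and first chromosome 9), a setting added after the data had been seen, it was 2.84% and 7.07%, and the shared portion of PiC islands 50%. H3K36me3 coverage was 2.10% and 1.65% with the 50% of most tags, 2.23% and 1.72% with spans narrowed by 100 kb at each end, 2.75% and 2.15% without the 2 denser clusters, and 2.48% to 4.08% and 2.16% to 3.23% with single clusters left out. The highest of these was without the long chromosome 2 cluster. The shared portion of ESC H3K9me3 islands was 95.8% with the 50% of most tags, 85.1% with equal lists and 57.8% when an overlap of 50% of both islands was required. For PiC islands, equal lists gave 62.8%, the 50% overlap 37.0% and islands within 2 kb counted as shared 60.6%. Clusters left out singly gave number ratios of 1.496 to 1.63, ESC shared portions of 91.0% to 95.1% and PiC portions of 53.0% to 57.3%. Library depth is unknown, so no limit from depth could be set.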
